A study of Arabidopsis thaliana with 12 samples.

Results

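The N-hydroxypipecolic acid pathway is represented here by 4 genes of the 27655 in the deposited expression table. They were chosen by gene ID: ALD1 (AT2G13810), SARD4 (AT5G52810), FMO1 (AT1G19250) and UGT76B1 (AT3G11340). All 4 were present in the table and passed the filter on low values, FMO1 through the K4A and sdg2 libraries alone, since it was under 1 TPM (transcripts per 1000000) in every HTR5 and Col library. The genes were singled out with their values in these libraries already known, so their levels are given as a description and carry no test. Total RNA of Arabidopsis thaliana seedlings, 3 weeks old and grown at 22 °C under a day of 16 h light and 8 h dark, was sequenced in 12 libraries. The 4 groups of 3 libraries are, by genotype label, h3.3ko;HTR5 K4A (called K4A here), h3.3ko;HTR5 (called HTR5), sdg2, and WT (Col) (called Col). The first pair shares the loss of histone H3.3 genes and differs in the H3.3 gene HTR5 put back, whose lysine 4 is alanine in K4A. SDG2 encodes an enzyme that methylates lysine 4 of histone H3, and the series title gives the function of this methylation as the study's subject. No source used here gives the promoter of the HTR5 transgenes, the number of lines, the sdg2 allele or the number of plants pooled. Replicates are separate samples by label, and where they came from 1 culture the p-values below measure a spread that may be technical.

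N-hydroxypipecolic acid is a mobile signal of systemic acquired resistance, the state in which leaves far from an infection become resistant. ALD1 is an aminotransferase that takes the amino group from lysine, SARD4 is a reductase that helps form pipecolic acid, and FMO1 is the monooxygenase that hydroxylates pipecolic acid on its nitrogen. UGT76B1 is a glucosyltransferase that attaches glucose to N-hydroxypipecolic acid, and also to salicylic acid and isoleucic acid, and so lowers the level of the free signal. The calmodulin-binding-type transcription factors SARD1 and CBP60g are known to bind and activate pathway genes in immunity, and salicylic acid and N-hydroxypipecolic acid reinforce each other.

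The promoters of 3 of the genes are shown because SARD1 and CBP60g prefer DNA with the letters GAAATTT, and each of the 3 holds them. The sequence is that of TAIR10.1 from RefSeq, 250 bases before the annotated start, on the strand of the gene. Capitals mark GAAATTT on either strand, which reads AAATTTC where it lies on the opposite strand.
ALD1 at chr2:5768167-5768416 (+): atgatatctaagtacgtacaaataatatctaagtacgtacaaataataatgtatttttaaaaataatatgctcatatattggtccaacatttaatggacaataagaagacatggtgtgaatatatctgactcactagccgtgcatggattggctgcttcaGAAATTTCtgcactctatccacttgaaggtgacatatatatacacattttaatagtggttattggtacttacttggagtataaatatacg
FMO1 at chr1:6653196-6653445 (−): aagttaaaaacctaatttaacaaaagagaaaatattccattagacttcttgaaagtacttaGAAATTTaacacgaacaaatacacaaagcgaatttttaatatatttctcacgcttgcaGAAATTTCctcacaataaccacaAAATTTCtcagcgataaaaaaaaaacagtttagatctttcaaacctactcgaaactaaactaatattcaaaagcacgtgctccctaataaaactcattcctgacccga
UGT76B1 at chr3:3556304-3556553 (+): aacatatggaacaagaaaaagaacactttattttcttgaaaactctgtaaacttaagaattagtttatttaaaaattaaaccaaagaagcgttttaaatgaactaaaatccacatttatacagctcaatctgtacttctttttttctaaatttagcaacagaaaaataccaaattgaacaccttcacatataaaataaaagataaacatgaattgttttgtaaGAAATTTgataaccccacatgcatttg
In ALD1 the 2 matches overlap on opposite strands in GAAATTTC. FMO1 held 4 matches in 3 separate stretches, one of which is again GAAATTTC, and UGT76B1 held 1 match near its start. Over windows from 250 bases before to 50 after the start of 27443 genes, 14.2% held GAAATTT on either strand. SARD4 held none of these matches. It held 2 matches of TTGAC, the core of the W-box that WRKY factors bind, which lies in 50.5% of all windows and in none of the other 3 members. The window before SARD4 is not printed because it runs through the end of AT5G52800, a gene on the same strand. TGACG, the core bound by TGA factors, and CGCGT, bound by CAMTA factors, were found in no member, against 23.1% and 8.7% of all windows. TTGAC and TGACG can share letters. A match is only a run of letters and was not examined for binding.

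Reads in annotated genes numbered 21518849 to 27648945 per library in K4A, 13718753 to 14536028 in HTR5, 20725060 to 30364749 in the libraries labelled sdg2 and 13773724 to 14174898 in Col. The SDG2 transcript was not low in the libraries labelled sdg2, which had 161.1 ± 19.4 TPM against 21.9 ± 3.10 TPM in Col (SD, n = 3 each), so transcript level does not check that label. The H3.3 gene AT5G10980 stood at 4.80 ± 0.827 TPM in K4A and 6.49 ± 3.22 TPM in HTR5, against 191.9 ± 22.0 TPM in sdg2 and 243.5 ± 8.58 TPM in Col. Transcript of another H3.3 gene, AT4G40030, was still present in both h3.3ko groups. It ran from 71.9 to 86.0 TPM in K4A and 160.7 to 179.3 TPM in HTR5, against 257.5 to 282.2 TPM in sdg2 and 307.5 to 321.1 TPM in Col. K4A and HTR5 thus also differed in AT4G40030, and its transcript level does not check the h3.3ko label. Several measures part the libraries as the compared groups do. Chloroplast-encoded genes held 0.037 to 0.0446% of TPM in K4A, 0.190 to 0.431% in HTR5, 0.0292 to 0.0413% in sdg2 and 0.155 to 0.211% in Col. The summed TPM of 4 leaf markers (RBCS1A, LHCB1.1, CAB3, RCA) ran from 15995 to 17205 in K4A, 28284 to 36600 in HTR5, 9473 to 10969 in sdg2 and 34219 to 35594 in Col. That of 4 evening clock genes (TOC1, GI, ELF4, LUX) ran from 209 to 219 in K4A, 29.3 to 34.4 in HTR5, 323 to 335 in sdg2 and 27.2 to 31.1 in Col. Of 10 root markers SCR and SHR passed the filter, and the other 8 were at or near 0 in every group, with means of at most 0.448 TPM. That of 4 morning clock genes (CCA1, LHY, RVE8, PRR9) ran from 205 to 215 in K4A, 280 to 347 in HTR5, 45.2 to 49.0 in sdg2 and 262 to 286 in Col. The 5 flower and pollen genes (AP3, PI, AG, VGD1 and AT1G19890) summed to 56.1 to 58.4 TPM in K4A, 132 to 163 in HTR5, 180 to 193 in sdg2 and 115 to 156 in Col. Among them the pollen gene VGD1 averaged 1.85 ± 0.478 TPM in K4A and 65.2 ± 2.07 TPM in HTR5, and 129.8 ± 6.43 TPM in sdg2 and 85.0 ± 17.3 TPM in Col (SD, n = 3 each). The part of these differences in the results below was not tested, and a difference in library handling that followed the groups cannot be told apart from genotype. In RNA of mixed cell types, fewer cells of a type and less RNA per cell also cannot be told apart.

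ALD1 lies on chromosome 2 from 5768417 to 5772266 (TAIR10.1, plus strand, 10 exons, which make up 40.8% of the span). It had 7.31, 6.02 and 6.80 TPM in the K4A libraries, against 0.741, 1.05 and 0.851 TPM in HTR5. The libraries labelled sdg2 had 22.2, 20.8 and 21.0 TPM, against 0.814, 0.572 and 0.698 TPM in Col. Both mutant groups lay above their controls with no overlap, and the sdg2 libraries were the highest of all. The ratio of mean TPM was 7.62 for K4A over HTR5 and 30.7 for sdg2 over Col. HTR5 and Col overlapped, on 19 to 24 reads per library in HTR5 and 14 to 20 in Col.

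SARD4 lies on chromosome 5 from 21399331 to 21400686 (plus strand, 1 exon), and its first 89 bases are also the end of AT5G52800. It was the gene with the highest TPM of the pathway, with 254.8, 225.7 and 208.4 TPM in K4A, against 23.0, 33.3 and 22.8 TPM in HTR5. The sdg2 libraries had 191.0, 214.6 and 187.4 TPM, against 25.1, 21.3 and 21.6 TPM in Col. Again both mutants stood clear of their controls, but here they overlapped each other. The ratio of mean TPM was 8.71 for K4A over HTR5 and 8.72 for sdg2 over Col. AT5G52800, annotated as a DNA primase, averaged 1.58 ± 0.220 TPM in K4A and 1.12 ± 0.115 TPM in HTR5, and 3.32 ± 0.883 TPM in sdg2 and 0.920 ± 0.225 TPM in Col (SD, n = 3 each). How reads in the shared bases were counted is not given in the sources used here.

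FMO1 lies on chromosome 1 from 6650476 to 6653195 (minus strand, 5 exons). It had 19.9, 20.1 and 20.9 TPM in K4A, against 0.276, 0.744 and 0.459 TPM in HTR5. In sdg2 it had 144.4, 140.2 and 144.6 TPM, against 0.979, 0.289 and 0.582 TPM in Col. This was the widest spread between groups in the pathway: the control libraries held 5 to 17 reads each, the K4A libraries 497 to 616 and the sdg2 libraries 3210 to 4734. The ratio of mean TPM was 41.2 for K4A over HTR5, with 26.8 to 75.7 over all pairs of single libraries, and 232 for sdg2 over Col, with 143 to 500. On the log2(TPM + 1) scale the sdg2 difference of FMO1 ranked 2 among the 20881 tested genes, and the K4A difference ranked 120. Since FMO1 was chosen with these values known, the ranks are only a description.

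UGT76B1 lies on chromosome 3 from 3556554 to 3558361 (plus strand, 2 exons). It had 15.6, 17.8 and 16.7 TPM in K4A, against 1.58, 2.33 and 2.24 TPM in HTR5. In sdg2 it had 11.4, 12 and 13.0 TPM, against 1.21, 1.57 and 1.14 TPM in Col. UGT76B1 was the member with the highest libraries in K4A and no overlap with sdg2; 26.4% of all tested genes were higher in K4A in that way. The ratio of mean TPM was 8.14 for K4A over HTR5 and 9.30 for sdg2 over Col. It was also the member whose HTR5 libraries all lay above those of Col, narrowly, at 19 to 26 reads against 13 to 18, as did 16.4% of all tested genes.

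**Figure D1:**
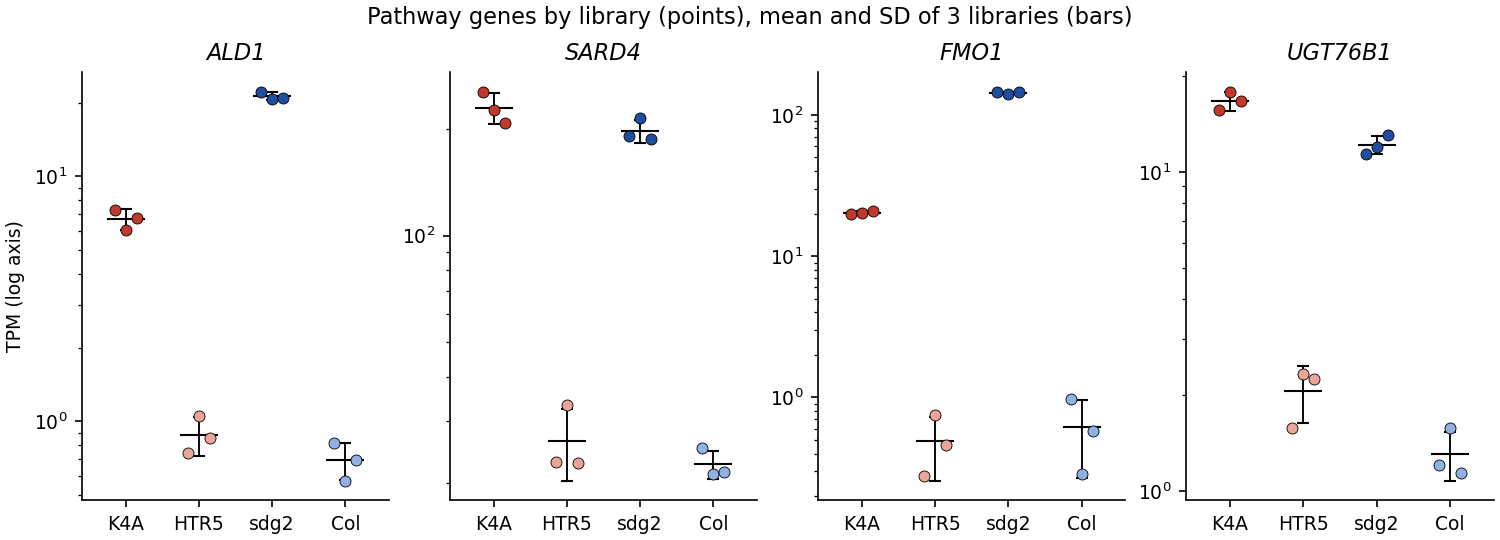
TPM of ALD1, SARD4, FMO1 and UGT76B1 in each library (points, log axis), with the mean and SD of the 3 libraries of K4A, HTR5, sdg2 and Col (bars). For ALD1 and FMO1 the sdg2 points lie well above those of K4A, for SARD4 they overlap, and for UGT76B1 the K4A points are higher.

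All 4 genes were higher with no overlap in K4A than in HTR5 and in sdg2 than in Col. Among all 20881 tested genes, 42.1% did so for K4A over HTR5 and 55.7% for sdg2 over Col. Since the genes were chosen with these values known, nothing is read from that count. On the log2(TPM + 1) scale the difference between K4A and HTR5 was 2.04 for ALD1, 3.09 for SARD4, 3.85 for FMO1 and 2.54 for UGT76B1 (SE 0.122 to 0.147). That between sdg2 and Col was 3.72, 3.07, 6.50 and 2.51 in the same order. The median of all tested genes was 0.14 for K4A over HTR5 and 0.31 for sdg2 over Col, and 4.69% and 4.27% of genes reached a log2 difference of 2. That value lies below the difference of every member, so nothing is read from these shares either. Adding 1 to low values makes the log2 differences of the members smaller than the ratios of TPM, most of all for FMO1 and ALD1.

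K4A and sdg2 were set against each other next. ALD1 and FMO1 were lower in K4A than in sdg2, with ratios of mean TPM of 0.315 and 0.142 and log2 differences of −1.54 and −2.76, and no overlap, as for 39.5% of all tested genes. SARD4 and UGT76B1 were at 1.16 and 1.38 times the sdg2 level, with log2 differences of 0.21 and 0.43, and the libraries overlapped for SARD4 and not for UGT76B1. The SARD4 difference was 0.30 with median-of-ratios scaling and 0.25 with limma-voom. The K4A effect less the sdg2 effect was −1.69 for ALD1 and −2.65 for FMO1, and 0.02 for SARD4 and 0.03 for UGT76B1 (SE 0.173 to 0.207). The lower ALD1 and FMO1 in K4A than in sdg2 kept their direction under every scaling, pseudocount and left-out library tried. K4A and sdg2 lie in the same set of libraries by chloroplast share and depth, while their leaf marker, clock, and flower and pollen sums differ, as given above. The part of these measures in the ALD1 and FMO1 differences was not tested.

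Deposited TPM values were made per base of gene span with introns, so levels of different genes were compared as reads per kb of exon and per 1000000 reads. In K4A, SARD4 led with 93.7 ± 9.27, followed by FMO1 with 11.8 ± 0.340, UGT76B1 with 7.12 ± 0.485 and ALD1 with 6.71 ± 0.649 (SD, n = 3), the last 2 within their spread. In HTR5, SARD4 stood at 11.8 ± 2.30, ALD1 at 0.963 ± 0.142 and UGT76B1 at 0.957 ± 0.174, with FMO1 lowest at 0.310 ± 0.139. In sdg2, FMO1 with 81.3 ± 0.369 and SARD4 with 79.1 ± 6.97 were level within their spread, above ALD1 with 20.9 ± 0.626 and UGT76B1 with 5.07 ± 0.321. In Col the order was that of HTR5, with SARD4 at 10.3 ± 0.893, ALD1 at 0.772 ± 0.134, UGT76B1 at 0.618 ± 0.104 and FMO1 at 0.397 ± 0.221. On this scale the hydroxylase was the step with the lowest mean in both control groups and was on a par with the highest in sdg2. The glucosyltransferase was the lowest step in sdg2, and in K4A it was level with ALD1.

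**Figure D2:**
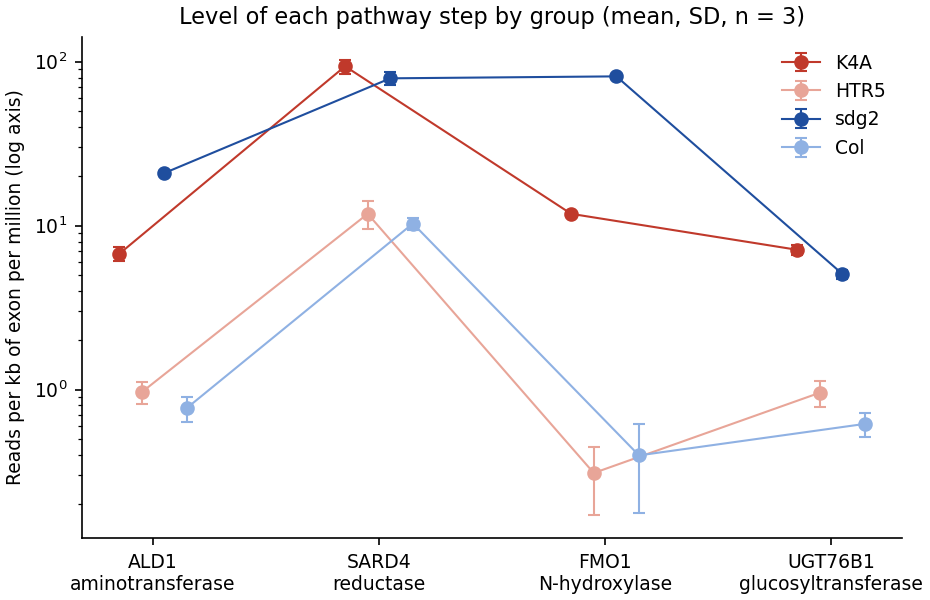
Reads per kb of exon and per 1000000 reads (log axis) for each pathway step in K4A, HTR5, sdg2 and Col; points are means and bars SD of 3 libraries, and lines join the steps of 1 group. FMO1 is the low point of both control lines and lies beside SARD4 at the top of the sdg2 line.

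By profile over the 12 libraries the 4 genes formed 2 pairs. Pearson r of log2(TPM + 1) was 0.998 for ALD1 with FMO1 and 0.988 for SARD4 with UGT76B1, and 0.876 to 0.915 for the other 4 pairs. These values mostly reflect the 4 group means and are given without a test. The tested genes most like ALD1 were CRK37 (r = 0.9982), a cysteine-rich receptor-like kinase, then FMO1 (0.9981) and the MAP kinase kinase kinase gene MEKK3 (0.9980). FMO1 was most like CRK37 (0.9995), which had 22 TPM in K4A, 1.23 in HTR5, 114 in sdg2 and 1.25 in Col, then AT4G10500 (0.9981) and ALD1 (0.9981). AT4G10500, also named DLO1, is a hydroxylase that inactivates salicylic acid. SARD4 was most like BZIP60 (0.9987), a transcription factor of the unfolded protein response, with 138 TPM in K4A, 48.4 in HTR5, 130 in sdg2 and 44.9 in Col. AT5G54710, an ankyrin repeat gene (0.9987), and ERD1, a chloroplast Clp protease subunit (0.9977), came next. UGT76B1 was most like SAG101 (0.9983), a partner of the immune regulator EDS1, with 74.8 TPM in K4A, 13.8 in HTR5, 52.9 in sdg2 and 10.4 in Col. AT3G27210 (0.9975) and the kinase gene AT5G47070 (0.9972) followed.

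Genes known to act on the pathway were compared next, with limma on log2(TPM + 1) over all tested genes. Of 20881 genes, K4A had 42.5% above and 26.1% below HTR5 at an adjusted p under 0.05. For sdg2 against Col the shares were 52.4% and 20.7%. Of the called genes, 61.9% were higher in K4A, against 50.7% with median-of-ratios scaling, 46.4% with quantile normalization and 52.4% with limma-voom. For sdg2 the share was 71.7%, against 50.5%, 49.97% and 61.6% with the same 3 alternatives. The log2 medians of 0.14 and 0.31 moved to 0.0017 and 0.0083 with median-of-ratios scaling, so small rises in the lists below depend on scaling.

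Most upstream regulators rose in both mutants. Of 22, K4A had 19 called higher and 2 lower, and sdg2 had 19 higher and 0 lower. The shares of all tested genes were 42.5% and 26.1% in K4A, and 52.4% and 20.7% in sdg2. The median log2 fold change of the regulators was 0.75 in K4A and 1.30 in sdg2, against 0.14 and 0.31 over all genes. SARD1, whose product binds pathway promoters in immunity, had 49.7 ± 1.23 TPM in K4A and 3.00 ± 0.410 TPM in HTR5, a log2 fold change of 3.67 (SE 0.0900, adjusted p = 2.55e-14). It had 81.7 ± 2.31 TPM in sdg2 and 2.68 ± 0.0932 TPM in Col, a log2 fold change of 4.49 (SE 0.0900, adjusted p = 2.98e-15). CBP60g, its close relative, rose by 2.99 in K4A and 3.46 in sdg2. The largest rises after SARD1 were those of WRKY33, by 3.57 and 4.18, and WRKY46, by 3.18 and 3.89, in K4A and sdg2. Both genes encode transcription factors of immunity. WRKY33 and WRKY46 were also called higher in HTR5 than in Col, by 0.91 and 0.82, as were WRKY70 by 0.52 and NDR1 by 0.44, among 5.5% of all genes. NDR1 was not called with median-of-ratios scaling.

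The immune regulators EDS1 and PAD4 rose by 2.24 and 2.19 in K4A and by 2.52 and 2.09 in sdg2. MPK3, a MAP kinase that acts upstream of ALD1 in immunity, rose by 2.07 and 2.42. CAMTA3, a repressor of SARD1 and CBP60g, rose as well, by 1.12 in K4A and 1.39 in sdg2. In K4A the falls were those of CAMTA1, by 0.42 (adjusted p = 0.00116), and TGA4, by 0.29 (adjusted p = 0.0373). TGA4 was no longer called without K4A replicate 1, K4A replicate 2 or HTR5 replicate 2. In sdg2 the log2 fold changes of CAMTA1 (0.17), TGA4 (−0.15) and CBP60a (−0.08) missed the threshold. All 3 were called lower with median-of-ratios scaling, CAMTA1 with its sign turned (−0.16). That scaling left 17 regulators called higher in sdg2 and 19 in K4A, and quantile normalization left 14 and 19. In these libraries the evening clock sum was high and the leaf marker sum low alongside the regulators, and their part in these changes was not tested.

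The K4A and sdg2 effects on the regulators differed for several of them. Of the 22, the K4A effect was called smaller for 11 and larger for 1, against 26.6% and 14.1% of all tested genes (40.7% in either direction). The widest gap was that of WRKY54, with 49.3 ± 0.858 TPM in K4A and 9.39 ± 1.64 TPM in HTR5, and 141.2 ± 4.60 TPM in sdg2 and 10.2 ± 2.04 TPM in Col. Its difference of effects was −1.39 (SE 0.174, adjusted p = 1.70e-05), and that of its relative WRKY70 was −1.27. The difference for SARD1 was −0.82 (adjusted p = 0.000131) and that for CBP60g −0.46 (adjusted p = 0.00148). EDS1, PAD4 and CAMTA3 had differences of −0.28, 0.10 and −0.27, which missed the threshold. PAD4 was called larger in K4A with median-of-ratios scaling (0.28) and with quantile normalization (0.22). With median-of-ratios scaling the K4A effect was called smaller for 9 regulators and larger for 4.

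**Figure D3:**
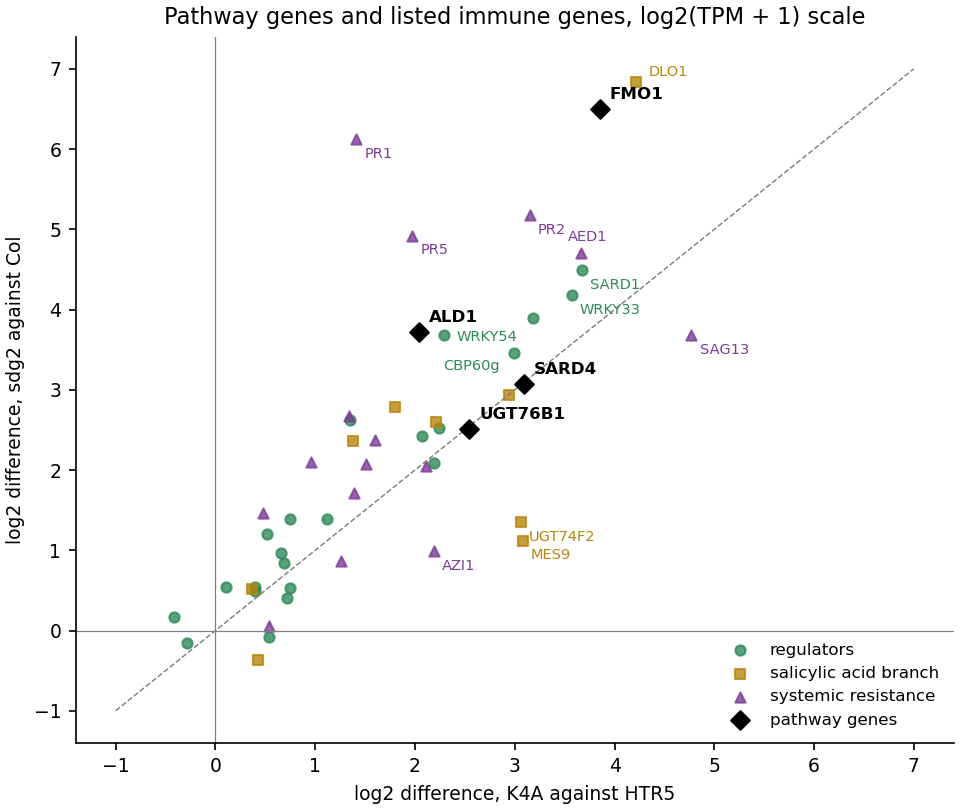
Log2 difference in K4A against HTR5 (horizontal) and sdg2 against Col (vertical) for the pathway genes (diamonds) and the tested genes of 3 lists, on the log2(TPM + 1) scale; the dashed line marks equal effects. SARD4 and UGT76B1 lie near the line, ALD1 and FMO1 lie above it with PR1, PR2 and PR5, and UGT74F2 and MES9 lie below it.

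Genes of lysine synthesis, breakdown and transport, the supply of the pathway's substrate, moved in both directions. Of 16 genes, K4A had 9 called higher and 2 lower, or 56.2% and 12.5%, against 42.5% and 26.1% of all tested genes. In sdg2 10 were called higher and 3 lower, or 62.5% and 18.8%, against 52.4% and 20.7%. Their median log2 fold change was 0.28 in K4A and 0.41 in sdg2. The largest rises were outside synthesis. LKR/SDH, the bifunctional enzyme that starts lysine breakdown by the saccharopine route, had 165.1 ± 4.86 TPM in K4A and 26.2 ± 2.81 TPM in HTR5, and 65.3 ± 2.56 TPM in sdg2 and 23.5 ± 1.38 TPM in Col. It rose by 2.62 in K4A and by 1.43 in sdg2, and the effects differed by 1.18 (adjusted p = 7.17e-07). LHT1, a plasma membrane transporter of lysine, histidine and other amino acids, rose by 2.26 in K4A and 3.22 in sdg2.

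Within synthesis, DHDPS1 and DHDPS2, which encode the first enzyme committed to lysine, rose by 0.86 and 0.82 in K4A and by 1.01 and 0.76 in sdg2. The aspartate kinase gene AK3 fell, with 34.9 ± 0.654 TPM in K4A and 132.2 ± 8.40 TPM in HTR5, and 28.5 ± 1.99 TPM in sdg2 and 143.4 ± 6.29 TPM in Col, log2 changes of −1.89 and −2.29. AK1, another aspartate kinase gene, rose by 0.72 in both. With median-of-ratios scaling K4A had 8 genes up and 5 down by the test, and sdg2 had 7 up and 5 down. AGD2 encodes the aminotransferase of lysine synthesis and is the closest relative of ALD1 in the genome by coding sequence, with 66.5% identity over 1106 bases. It had 68.9 ± 2.32 TPM in K4A and 73.4 ± 6.59 TPM in HTR5 (log2 fold change −0.09, adjusted p = 0.265). In sdg2 it had 84.4 ± 3.71 TPM and in Col 68.7 ± 0.505 TPM (0.29, adjusted p = 0.00111), a rise that was not called with median-of-ratios scaling, quantile normalization or limma-voom. Under these 3 alternatives AGD2 was instead called lower in K4A, with log2 fold changes of −0.24, −0.33 and −0.22.

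**Figure D4:**
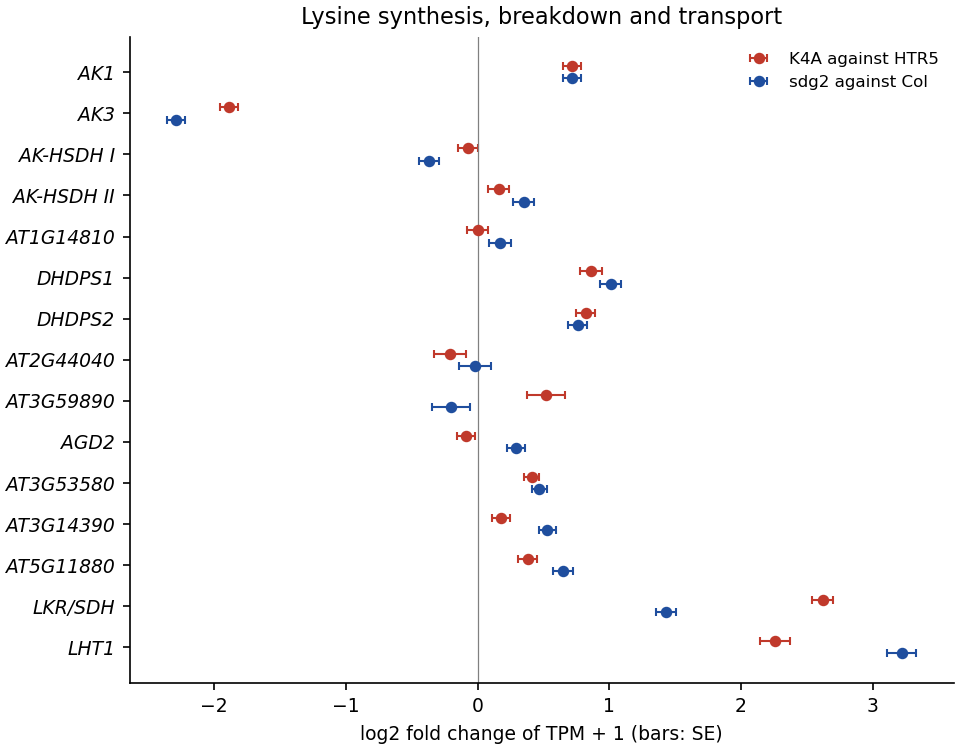
Log2 fold change of TPM + 1 for 15 genes of lysine synthesis, breakdown and transport in K4A against HTR5 and sdg2 against Col; bars are SE, and genes with no symbol in the annotation carry their ID. LKR/SDH and LHT1 lie farthest to the right, and AK3 lies farthest to the left.

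Salicylic acid genes were compared because that hormone acts with N-hydroxypipecolic acid. Of 9 genes, 7 were called higher in K4A and 8 in sdg2, with 0 lower in either, and medians of 2.21 and 2.36. Over all tested genes, 42.5% went up and 26.1% down in K4A by the test, and 52.4% and 20.7% in sdg2. UGT74F1, higher in sdg2 by 0.52 (limma adjusted p = 0.0211), lost its call once values were quantile normalized. It also lost it under limma-voom and when scaled by median of ratios. Under each of these settings sdg2 had 7 genes called higher and 1 lower. ICS1, which encodes the isochorismate synthase of salicylic acid synthesis, had 55.5 ± 3.16 TPM in K4A and 15.3 ± 2.01 TPM in HTR5 (log2 fold change 1.80, adjusted p = 1.12e-10). It had 80.6 ± 3.58 TPM in sdg2 and 10.8 ± 0.939 TPM in Col (2.79, adjusted p = 5.93e-13). EDS5, the transporter that exports the precursor from the chloroplast, rose by 2.94 in K4A and 2.93 in sdg2. PBS3, the enzyme that conjugates isochorismate with glutamate, rose by 2.21 and 2.60. BSMT1, a methyltransferase, was not called in either (0.43 and −0.37) and was called lower in sdg2 with median-of-ratios scaling.

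Over the 9 genes the K4A effect was called larger for 3 and smaller for 4, against 14.1% and 26.6% of all tested genes. DLO1 had 123.7 ± 9.99 TPM in K4A and 5.71 ± 0.397 TPM in HTR5, and 799.6 ± 48.0 TPM in sdg2 and 6.08 ± 0.728 TPM in Col. Its log2 fold changes were 4.22 and 6.83, and the effects differed by −2.61 (adjusted p = 6.98e-10), as FMO1 did by −2.65. UGT74F2, a glucosyltransferase of salicylic acid, had 232.0 ± 10.7 TPM in K4A and 27.3 ± 4.90 TPM in HTR5, and 61.9 ± 0.933 TPM in sdg2 and 23.6 ± 0.356 TPM in Col. Its effect was larger in K4A, by 1.70 (adjusted p = 1.01e-07). MES9, an esterase of methyl salicylate, was also larger in K4A, by 1.95 (adjusted p = 2.47e-07), with 79.5 ± 2.15 TPM in K4A and 8.67 ± 1.86 TPM in HTR5, and 21.3 ± 0.430 TPM in sdg2 and 9.23 ± 0.304 TPM in Col.

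Of 16 genes that mark or carry systemic resistance, 15 were tested, and DIR1 had 0 reads in all 12 libraries. All 15 were called higher in K4A and 14 in sdg2, with medians of 1.51 and 2.1. Of all tested genes, 42.5% were called higher in K4A and 52.4% in sdg2. With quantile normalization 14 of the 15 were called higher in K4A, as NIMIN3 missed the threshold, and NIMIN3 was called lower in sdg2 (−0.31). PR1, the classic marker of salicylic acid response, had 111.2 ± 1.81 TPM in K4A and 41.6 ± 7.71 TPM in HTR5, but 2728 ± 109.5 TPM in sdg2 and 38.7 ± 8.22 TPM in Col. Its log2 fold change was 1.41 in K4A and 6.12 in sdg2, with a difference of −4.71 (SE 0.179, adjusted p = 8.45e-11). The other secreted defence proteins PR2 and PR5 differed likewise, by −2.03 and −2.95. AED1, an apoplastic protease gene, rose by 3.66 in K4A and 4.70 in sdg2. SAG13 rose most in K4A, by 4.77, with 795.5 ± 30.7 TPM in K4A and 28.3 ± 2.64 TPM in HTR5. In sdg2 it rose by 3.68, with 713.6, 680.7 and 730.0 TPM against 56.9, 53.5 and 52.9 TPM in Col. The HTR5 libraries thus lay below those of Col for SAG13, and its log2 difference between K4A and sdg2 was 0.17. AZI1, a lipid transfer protein gene of systemic priming, rose by 2.19 in K4A and 0.99 in sdg2. NPR1, a receptor-type coactivator of salicylic acid responses, rose by 1.39 and 1.71, and NPR3 by 2.11 and 2.05. Of the 15, the K4A effect was called smaller for 9 and larger for 3, against 26.6% and 14.1% of all tested genes. With median-of-ratios scaling it was called smaller for 8 and larger for 4. The leaf marker sum was low and the evening clock sum high in the same libraries, and their part was not tested.

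Relatives of FMO1 and of UGT76B1 were described next. Of 16 other flavin monooxygenase genes, 8 passed the filter, and each mutant had 3 of them higher and 5 lower by the test, with medians of −0.53 in K4A and −0.68 in sdg2. These are 37.5% higher and 62.5% lower in each mutant. Of all tested genes, 42.5% were higher and 26.1% lower in K4A, and 52.4% and 20.7% in sdg2. FMO GS-OX3 and FMO GS-OX1, whose enzymes oxidise side chains of aliphatic glucosinolates, fell by 1.94 and 1.59 in K4A and by 2.12 and 1.97 in sdg2. YUC8, an enzyme gene of auxin synthesis, fell by 1.04 and 0.89, and passed the filter through the HTR5 and Col libraries alone. Without YUC8, each mutant had 3 of 7 called higher and 4 lower, with medians of −0.49 in K4A and −0.48 in sdg2. The rises were of at most 0.46 in K4A (YUC2, FMO GS-OX4, FMO GS-OX5) and 0.44 in sdg2. In sdg2 with median-of-ratios scaling 0 genes were called higher, without sdg2 replicate 1 the count was 1, and FMO GS-OX5 turned to −0.19 with quantile normalization. AT5G45180, closest to FMO1 with 83.9% identity over 623 bases of coding sequence, stood at 0.0302 TPM in K4A, 0 in HTR5, 0.142 in sdg2 and 0 in Col, and was too low to test.

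Of 18 other UGT76 genes, 14 were tested. K4A had 9 called higher and 3 lower, and sdg2 had 7 and 4, with medians of 0.73 and 0.44. However, UGT76E2, AT3G46700, AT3G46690 and AT3G46680 were under 1 TPM in every HTR5 and Col library and passed the filter through the mutants alone. Without these 4, K4A had 5 of 10 higher and 3 lower, and sdg2 had 4 and 4, with medians of 0.12 and −0.05, against 42.5% and 52.4% of all tested genes called higher. UGT76D1, a glycosyltransferase with dihydroxybenzoic acids among its substrates, rose by 2.37 in K4A and 2.28 in sdg2. AT3G46690 had 17.6 ± 2.22 TPM in K4A and 0.447 ± 0.222 TPM in HTR5, and 7.87 ± 1.46 TPM in sdg2 and 0.545 ± 0.418 TPM in Col. It rose by 3.69 and 2.55, and its neighbour AT3G46700 by 2.89 and 0.59. Both are UDP-glycosyltransferase genes of a tandem cluster on chromosome 3, so reads may have been split among near copies. AT3G46680 of the same cluster had 0 reads in every HTR5 library and 12 to 22 in K4A, so its fitted change is no measure of size. AT3G55710 fell by 1.13 in K4A and 1.11 in sdg2, and AT5G05890 fell by 1.25 in sdg2. UGT76C1, closest to UGT76B1 with 69.2% identity over 558 bases and known to glucosylate cytokinins, fell by 0.62 in K4A (13.1 ± 0.680 TPM against 20.6 ± 1.21 TPM in HTR5). In sdg2 its change of −0.14 missed the threshold but was called at −0.46 with median-of-ratios scaling. With the filter at a mean TPM of 5, which left 9 of these genes, 4 were called higher in K4A and 3 in sdg2.

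**Figure D5:**
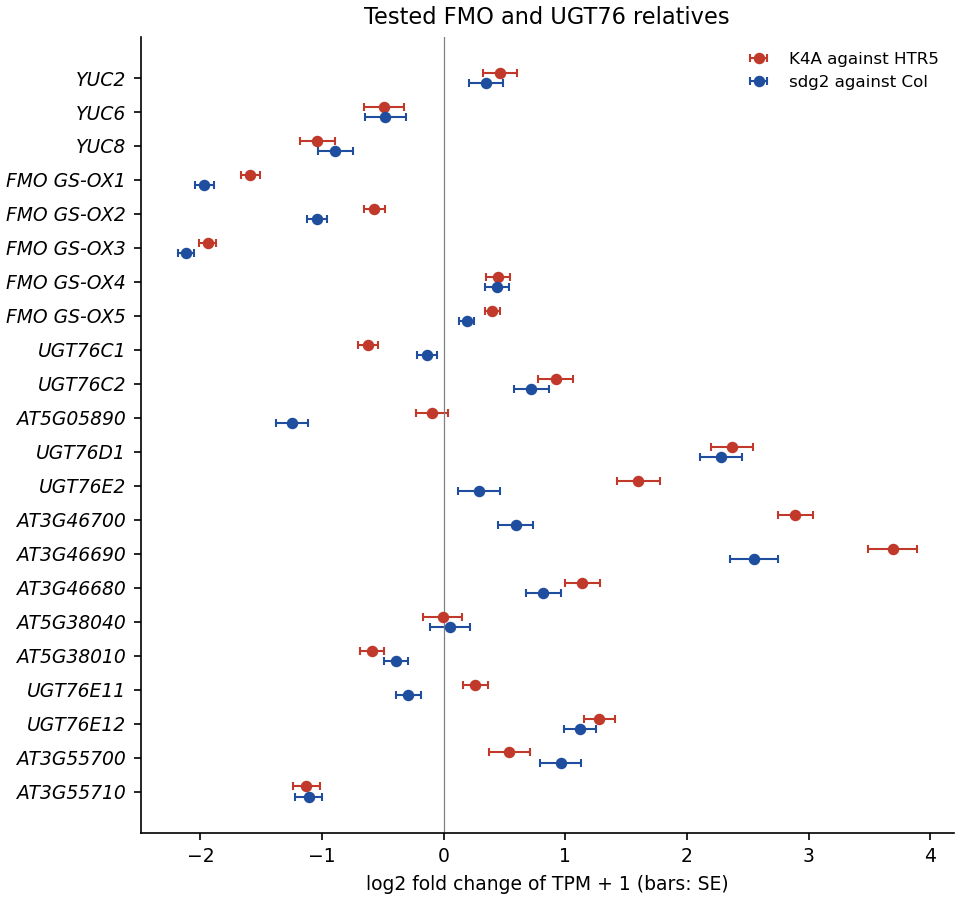
Log2 fold change of TPM + 1 for the tested relatives of FMO1 (YUC and FMO GS-OX genes) and of UGT76B1, in K4A against HTR5 and sdg2 against Col; bars are SE, and genes with no symbol in the annotation carry their ID. The FMO relatives lie between −2.12 and 0.46, and AT3G46690 and AT3G46700 lie farthest right in K4A.

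The nearest 3 genes on each side of the 4 members were also described. Of these 24 neighbours 17 were tested, and 8 went up and 6 down in K4A by the test, and 10 up and 4 down in sdg2. The shares higher, 47.1% and 58.8%, were near the 42.5% and 52.4% of all tested genes, so the counts say nothing particular of these regions. Their log2 fold changes ran from −1.37 to 1.49 in K4A and from −1.22 to 1.92 in sdg2. The highest was SERK4, a receptor-like kinase gene on the side of ALD1, with 43.2 ± 1.69 TPM in K4A and 14.8 ± 2.28 TPM in HTR5, and 52.8 ± 3.32 TPM in sdg2 and 13.2 ± 0.680 TPM in Col. The lowest was XYP2 on the other side, with 3.13 ± 0.280 TPM in K4A and 9.72 ± 1.49 TPM in HTR5, and 5.28 ± 1.06 TPM in sdg2 and 13.5 ± 0.866 TPM in Col.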

How the data were processed

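The authors deposited TPM for 27655 genes in 12 libraries, with each column summing to 1000000. Per the submitters' processing notes, fastp 0.20.1, HISAT2 2.1.10, DESeq2 1.26.0 and build TAIR10 were used; the counting tool, annotation and use of strand are not given in the sources used here. Groups and replicate numbers come from the sample titles. Multiplying TPM by TAIR10.1 gene spans gave whole reads within 0.01 for 99.98 to 99.99% of values under 2000 reads in each library, over 27445 matched genes; 210 did not match. These reads give depth and the exon-scaled levels.

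All groups entered 1 fit of limma (3.58.1, R 4.3.3) with a mean-variance trend to log2(TPM + 1) values of the 20881 genes with at least 1 TPM in at least 3 libraries. Adjusted p is Benjamini-Hochberg over all tested genes, and a call is an adjusted p under 0.05. The difference of effects subtracts the sdg2 effect (over Col) from the K4A effect (over HTR5). The fit was tested on simulated data in which few genes changed, so that test does not cover changes as broad as those called here. The members and the gene lists were chosen with earlier results of these data known. Named genes are the members, examples from the lists (mainly the 3 largest called changes in each direction), the 3 genes most like each member by Pearson r, the closest relatives and called neighbours. One result among the listed genes is not reported here. Relatives were found with blastn 2.17.0 on coding sequence, in place of the planned protein comparison, since no protein table was used here. Symbols are the RefSeq table's symbols or synonyms or, for SARD4, come from the choice of members and, for HTR5, from the sample labels. Alternatives were pseudocounts of 0.1 and 0.5, quantile normalization, median-of-ratios scaling, no filter, a filter at mean TPM 5, the replicate number as a block, a fit of the compared groups alone, limma-voom on recovered reads and each library left out.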

Additional observations from a re-analysis of the deposited data

Results flagged for a closer look

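The K4A effect and the sdg2 effect differed, by the limma test of the difference itself and by at least 1 on the log2 scale, for 18 genes. These belong to the regulator, lysine, salicylic acid, systemic resistance and UGT76 lists. The effect was smaller in K4A for the regulators WRKY54 (−1.39) and WRKY70 (−1.27), for the salicylic acid hydroxylase gene DLO1 (−2.61), and for the systemic resistance genes PR1 (−4.71), PR2 (−2.03), PR5 (−2.95), AED1 (−1.04), NIMIN1 (−1.13) and NIMIN2 (−1.33). It was larger in K4A for LKR/SDH of lysine breakdown (1.18), UGT74F2 (1.70) and MES9 (1.95) of salicylic acid turnover, and SAG13 (1.09) and AZI1 (1.21) of systemic resistance. For SAG13 the HTR5 libraries lay below those of Col, and the log2 difference between K4A and sdg2 themselves was 0.17. Among UGT76 genes it was larger in K4A for AT5G05890 (1.15), UGT76E2 (1.32), AT3G46700 (2.30) and AT3G46690 (1.14). With limma-voom the last of these was not called (adjusted p = 0.214). UGT76E2, AT3G46700 and AT3G46690 were under 1 TPM in every HTR5 and Col library and passed the filter through the mutants alone. UGT76E2 held 2 to 7 reads per HTR5 library, and AT3G46700 and AT3G46690 each held 4 to 8, so their values are of low precision. Of all tested genes, 40.7% were called for this difference with no limit on its size. The share that also differed by at least 1 was not counted. Clock and marker genes were left out of the 18, not because they failed the rule. All 4 morning clock genes were called for this difference, with a median of 2.01.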

How the results depend on the processing

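For the pathway genes no direction of K4A against HTR5 or sdg2 against Col turned under any alternative. The sizes moved with the number added to TPM and with scaling. For K4A against HTR5, pseudocounts of 0.1 and 0.5 gave 2.80 and 2.39 for ALD1, 5.18 and 4.42 for FMO1, and 2.98 and 2.76 for UGT76B1. For sdg2 against Col they gave 4.76 and 4.20 for ALD1, 7.76 and 7.05 for FMO1, and 3.13 and 2.81 for UGT76B1. Limma-voom gave 2.77, 5.26 and 2.89 for ALD1, FMO1 and UGT76B1 in K4A, and 4.73, 7.76, 3.00 and 2.94 for ALD1, FMO1, UGT76B1 and SARD4 in sdg2. Median-of-ratios scaling gave 3.48 for ALD1, 2.74 for SARD4, 6.26 for FMO1 and 2.26 for UGT76B1 in sdg2. Quantile normalization gave 3.55 for ALD1, 2.80 for SARD4 and 2.30 for UGT76B1 in sdg2, and 2.37 for UGT76B1 in K4A. A smaller number added to TPM widens low values by construction; the cause of the other moves was not tested. With each library left out in turn, the K4A differences ran from 1.98 to 2.1 for ALD1, 3.00 to 3.27 for SARD4, 3.74 to 3.97 for FMO1 and 2.43 to 2.61 for UGT76B1. The sdg2 differences ran from 3.67 to 3.77, 3.01 to 3.14, 6.35 to 6.66 and 2.46 to 2.59. The count of genes called between HTR5 and Col, 1938, was 688 with the compared groups alone and 1277 to 2684 with a library left out, lowest without Col replicate 3 (1277) and Col replicate 2 (1290). With the replicate block 14070 genes were called for K4A, 15126 for sdg2, 1667 for HTR5 against Col, 10135 for K4A against sdg2 and 7986 for the difference of effects, against 14319, 15278, 1938, 10489 and 8499. Libraries with the same number did not deviate together (r from −0.105 to 0.0703). No pairing by number was seen, but this check cannot exclude that replicates were grown or prepared in matched sets. The share of called genes that were higher was 59.2% for HTR5 against Col, 40.6% for K4A against sdg2 and 34.6% for the difference of effects, against 39.2%, 51.4% and 55.1% with median-of-ratios scaling. Among the listed genes, quantile normalization and limma-voom called 6 and 5 lysine genes lower in K4A, against 2. Median-of-ratios scaling and quantile normalization each called 3 regulators lower in sdg2 and limma-voom 2, against 0, and the K4A effect larger for 4, 4 and 2 regulators, against 1. BSMT1 was called lower in sdg2 with these 3 alternatives and with the compared groups alone. The higher FMO relatives in sdg2 numbered 0 with quantile normalization and 1 with limma-voom, against 3. The filter at mean TPM 5 left 3 lower FMO relatives in each mutant, against 5. TGA4 lost its call in K4A with the replicate block and with the compared groups alone. Depth limits FMO1, ALD1 and UGT76B1 in the controls, at 5 to 26 reads per library, so their ratios are imprecise. Intervals of counting were not computed, and reads without molecular identifiers are not independent molecules.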
